A study of Mus musculus with 5 samples.

Results

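The genes described here are the nuclear-encoded subunits of the mitochondrial respiratory chain and ATP synthase, measured in gastrocnemius muscle. They were chosen by name, as protein-coding mouse genes whose symbols begin with Ndufa, Ndufb, Ndufc, Ndufs or Ndufv (assembly factors named Ndufaf left out), Uqcr, Cox4 to Cox8 or Atp5, together with Sdha, Sdhb, Sdhc, Sdhd, Cyc1 and Cycs. The rule took 87 of the 35275 genes in the table, of which 21397 are protein coding. By function, 36 belong to complex I, 4 to complex II, 9 to complex III, 20 to complex IV and 17 to complex V, and 1 is the mobile carrier cytochrome c (Cycs). Ndufa4 and Ndufa4l2 were placed with complex IV, where Ndufa4 is now known to reside, despite their names. A mean of at least 1 FPKM (fragments scaled to gene length and library total) was reached by 84 of the 87, and these 84 are the members among 10710 such genes that entered the tests across all genes.

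All 5 samples belong to 1 group: gastrocnemius of female NSG mice aged 12 weeks, of genotype labelled wild type. Every mouse had received 10 tail-vein injections, 2 per week for 5 weeks, of about 10 µg of extracellular vesicles labelled MCF-10A/miR122 EV, and muscle was collected 2 days after the last one. NSG mice lack mature T, B and natural killer cells and carry that background in every sample, and MCF-10A is a human breast epithelial line that does not form tumours. No sample of another treatment was analysed here, so no effect of the vesicles can be read from these values. The samples are numbered 1 to 5 and are called libraries 1 to 5 below. Whether the 5 numbers are 5 animals is not stated in the labels. Each SD and p-value therefore measures only the spread between these samples, which may be technical.

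The respiratory chain passes electrons from NADH (complex I, NADH dehydrogenase) and succinate (complex II, succinate dehydrogenase) through ubiquinone to complex III (the cytochrome bc1 complex), then through cytochrome c to complex IV (cytochrome c oxidase), which reduces oxygen. Complexes I, III and IV pump protons, and complex V (ATP synthase) uses the resulting gradient to make ATP. Complexes I, III, IV and V combine subunits encoded in the nucleus with a few encoded in the mitochondrial genome, whereas complex II is wholly nuclear. Several small subunits of complex IV exist as paired isoforms, one made in heart and skeletal muscle and one made in most tissues, and others are known from testis or from low oxygen.

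The muscle isoforms Cox7a1 and Cox8b and their ubiquitous partners Cox7a2 and Cox8a differed in level by several fold in every library, as described below, and their start regions are shown for comparison. Each sequence runs from 250 bases before to 50 bases after the RefSeq gene start (GRCm38.p6), 5′ to 3′ on the gene's strand, with motif matches in capitals. The windows lie at chr7:30183921-30184220 on the plus strand for Cox7a1, chr9:79759804-79760103 on the minus strand for Cox7a2, chr7:140900397-140900696 on the minus strand for Cox8b and chr19:7217567-7217866 on the minus strand for Cox8a. The motifs searched, on both strands and counted whether or not they overlapped another, were those of nuclear respiratory factor 1 (NRF1; GCGCA, any base, GCGC), GABP (CCGGAAG), the oestrogen-related receptors (ERR, AAGGTCA), YY1 (AAGATGGC), Sp1 (GGGCGG), the MyoD E-box (CAGCTG), MEF2 (CTA, any 4 bases, TAG) and the TATA box (TATAAA).
Cox7a1: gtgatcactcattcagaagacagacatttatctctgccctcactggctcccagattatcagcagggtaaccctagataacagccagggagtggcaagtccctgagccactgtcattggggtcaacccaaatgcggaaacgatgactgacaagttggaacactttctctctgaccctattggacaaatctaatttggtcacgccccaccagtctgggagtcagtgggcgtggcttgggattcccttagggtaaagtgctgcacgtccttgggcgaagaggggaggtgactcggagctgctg
Cox7a2: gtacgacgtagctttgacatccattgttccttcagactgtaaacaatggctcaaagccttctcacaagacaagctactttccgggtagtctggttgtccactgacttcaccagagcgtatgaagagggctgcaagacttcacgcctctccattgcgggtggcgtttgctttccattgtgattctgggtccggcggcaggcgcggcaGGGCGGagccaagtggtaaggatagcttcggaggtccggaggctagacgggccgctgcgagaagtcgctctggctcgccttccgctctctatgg
Cox8b: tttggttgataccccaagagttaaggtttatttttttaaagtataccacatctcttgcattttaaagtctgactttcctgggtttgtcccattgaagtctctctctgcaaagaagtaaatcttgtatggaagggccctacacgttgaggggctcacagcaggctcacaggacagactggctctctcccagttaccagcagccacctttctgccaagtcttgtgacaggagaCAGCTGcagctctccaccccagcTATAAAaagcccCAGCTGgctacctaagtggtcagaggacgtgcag
Cox8a: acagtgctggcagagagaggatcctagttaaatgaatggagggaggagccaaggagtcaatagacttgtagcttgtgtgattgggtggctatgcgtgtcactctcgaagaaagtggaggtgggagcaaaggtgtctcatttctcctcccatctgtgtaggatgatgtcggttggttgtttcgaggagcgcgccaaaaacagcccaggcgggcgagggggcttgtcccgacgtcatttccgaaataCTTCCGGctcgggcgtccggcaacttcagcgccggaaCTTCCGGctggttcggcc

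The Cox8b window held 2 E-box matches, at positions -19 and 17 from the start, and 1 TATAAA match at position 5. The Cox8a window held 2 matches to CCGGAAG, both on the opposite strand, at positions -5 and 33. Cox7a2 held 1 match to GGGCGG at position -44, and Cox7a1 held none of the 8 motifs. In each pair shown here, the muscle isoform had fewer CpG dinucleotides: 7 in Cox7a1 against 20 in Cox7a2, and 2 in Cox8b against 19 in Cox8a. The observed-over-expected CpG ratio was 0.333 for Cox7a1, 0.833 for Cox7a2, 0.115 for Cox8b and 0.842 for Cox8a, with GC contents of 53%, 56.7%, 48.3% and 56.0% in the same order.

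Promoters were matched for 70 of the 87 genes and were set beside all 27025 promoters of the same length. The median promoter of the subunit genes had 57.8% GC and a CpG ratio of 0.815, against 52.7% and 0.389 for all promoters. The NRF1 motif was present in 16 of the 70 (22.9%), against 4.78% of all promoters. CCGGAAG was present in 21.4% against 9.12%, AAGGTCA in 11.4% against 4.66%, AAGATGGC in 12.9% against 2.88%, and GGGCGG in 42.9% against 35.9%. CAGCTG was present in 6 of the 70 (8.57%), against 16.1% of all promoters, the MEF2 motif in 1 (1.43%), against 3.70%, and TATAAA in 7 (10.0%), against 14.2%. These differences in share were not tested. A match describes letters in the window, not a bound site.

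The 84 members had a median level of 280 FPKM, against 6.0 FPKM for all 10710 genes. Together the 87 members took 3.0% ± 0.341 of the reads (SD, n = 5), with 3.0%, 3.42%, 2.57%, 3.23% and 2.78% in libraries 1 to 5. A level of 100 FPKM or more was reached by 69 members and of 1000 FPKM or more by 3: Atp5b, Cox6a2 and Cox8b. The libraries held between 16674504 and 25407988 reads, and the median member had 5570.5 reads per library. The median counting error of the 84 members was 1.30% (coefficient of variation), whereas the median member varied by 13.7% between libraries, against 16.3% for the median of all tested genes.

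**Figure D1:**
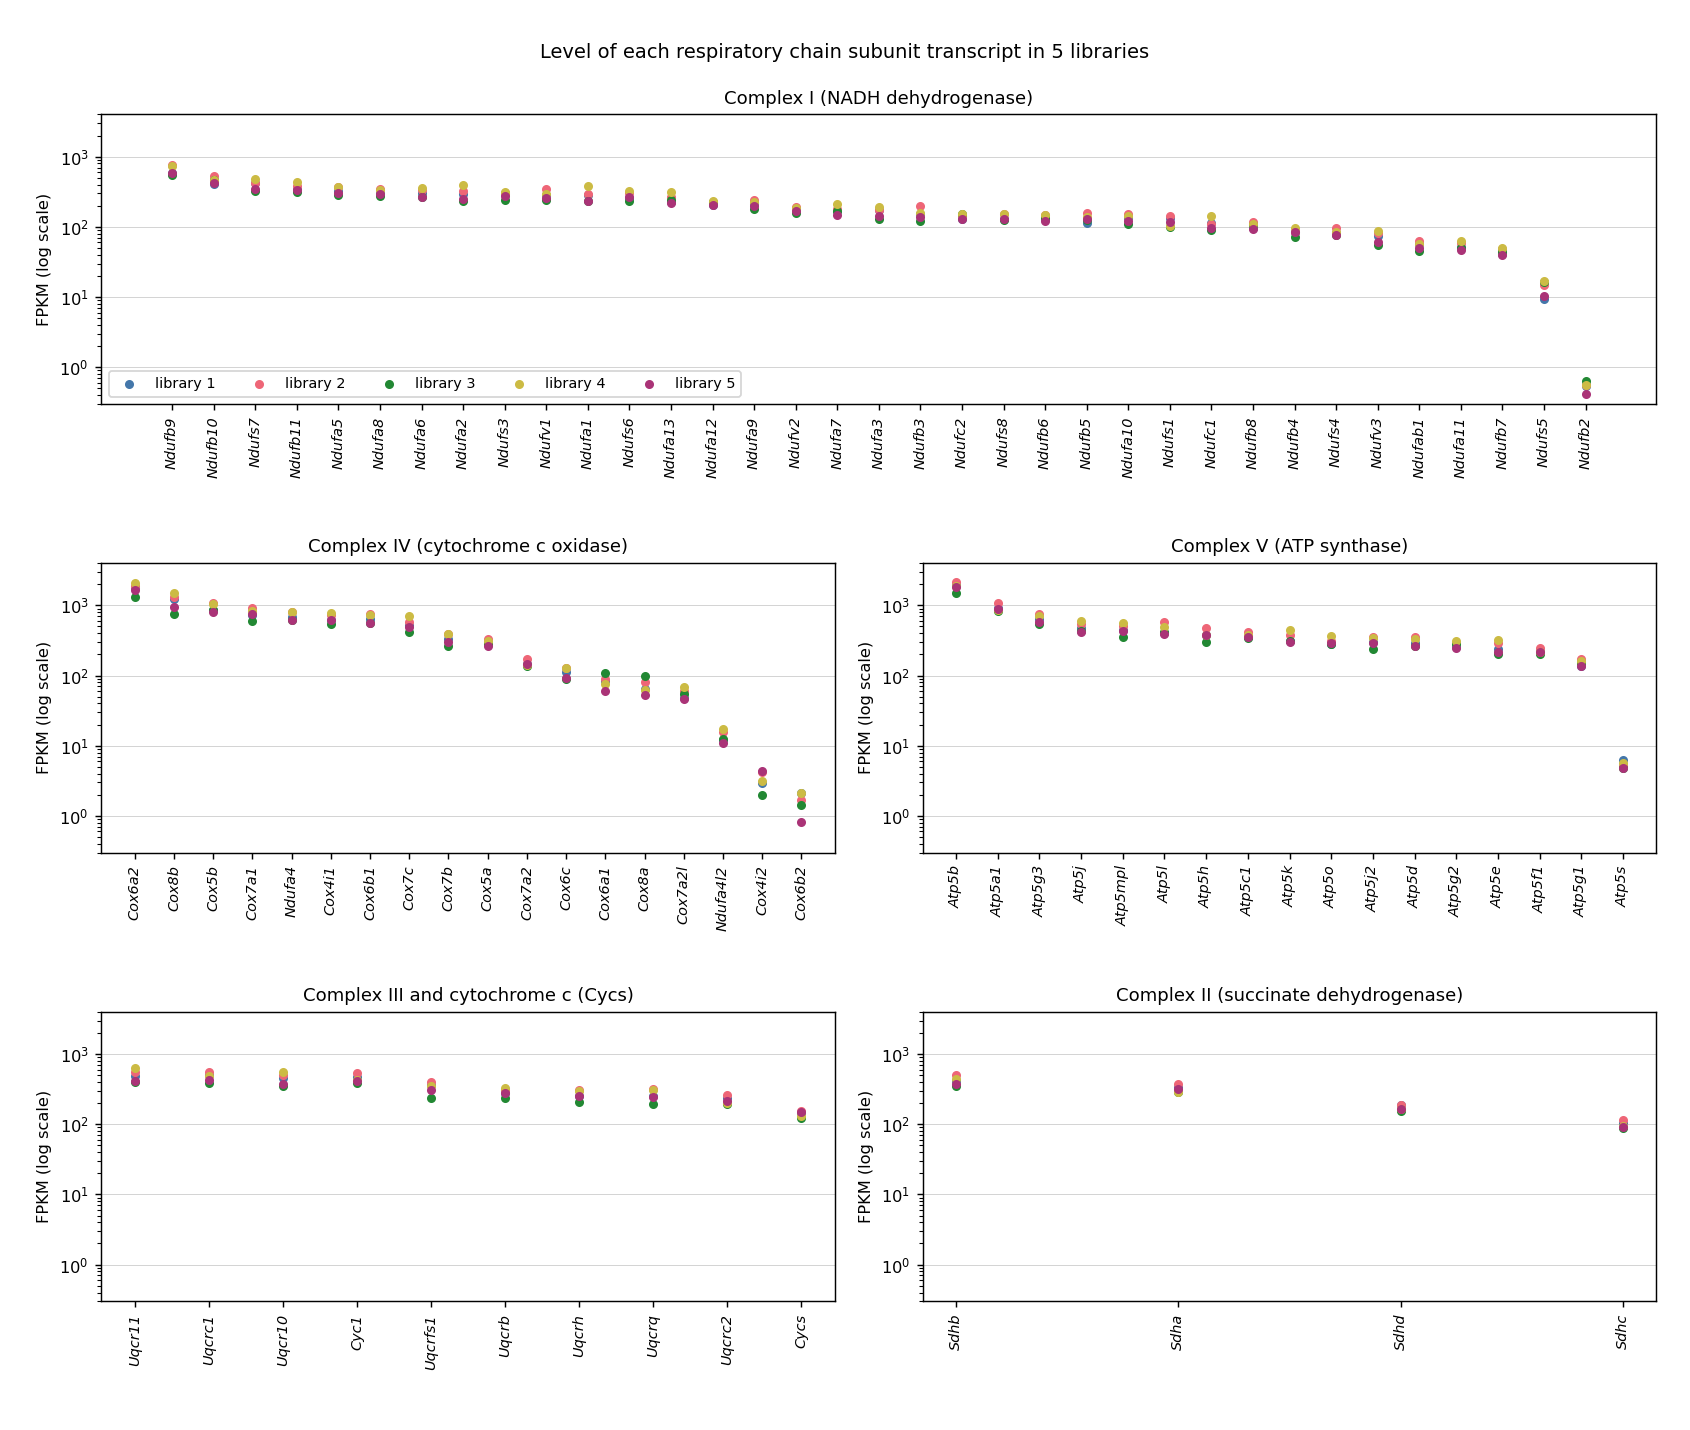
FPKM of each subunit transcript (log scale, 1 point per library) by complex, with members ordered by mean level. Cox7b2 and Cox8c, at 0 in at least 4 of the 5 libraries, and 1 complex I member not reported singly are not drawn; Atp5b and Cox6a2 are the highest, and Ndufb2 is the lowest of those drawn.

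Complex I is the largest of the complexes, an L-shaped enzyme with a matrix arm that carries flavin and iron-sulfur clusters and a membrane arm that pumps protons. Its 35 transcripts at 1 FPKM or more had a median level of 172 ± 21.8 FPKM (SD, n = 5), or 169 ± 20 over all 36. Ndufb9, an accessory subunit of the membrane arm, led them at 643 ± 93.6 FPKM, with 587, 753, 548, 734 and 592 FPKM in libraries 1 to 5. Libraries 2 and 4 stood apart from the other 3 for this gene. Ndufb10, another membrane-arm accessory subunit, followed at 461 ± 46.4 FPKM. Ndufs7, a core subunit that carries the last iron-sulfur cluster before ubiquinone, was at 401 ± 63.2 FPKM, and the accessory subunit Ndufb11 was at 362 ± 48.4 FPKM. For Ndufb11, 62.9% of the transcript is near-identical to other genes, so part of its reads may have been assigned elsewhere.

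The 7 nuclear core subunits of complex I, the group that holds all its redox centres, had a median of 275 ± 25.6 FPKM, against 159 ± 17.9 FPKM for the 28 tested accessory subunits. That gap rests on the gene lengths used: with the length of the GENCODE principal transcript the same medians were 275 ± 25.6 and 250 ± 33.5 (SD, n = 5 each). All 7 core transcripts were lowest in library 3, as deposited and with the median-of-ratios scaling described below, and 15 of the 28 accessory ones were lowest there as deposited. Of all 35 tested complex I transcripts, 22 were lowest in library 3 as deposited and 27 with that scaling. Among all tested genes the shares were 17.1% and 28.6%. Ndufs3 was at 287 ± 27.3 FPKM, though 84.1% of its transcript is shared with near-identical sequence. Ndufv1, which binds NADH and flavin, was at 285 ± 41.4 FPKM, and the iron-sulfur protein Ndufs8 at 138 ± 14.5 FPKM. Ndufs1, the largest core subunit, was the least abundant of the core at 118 ± 18.5 FPKM, and it was also the core transcript with the longest principal form, 2590 bases. Ndufv2, the core subunit with an iron-sulfur cluster next to the NADH site, varied little, from 157 to 194 FPKM. As deposited, the accessory transcripts not yet named ran evenly from Ndufa5 at 330 ± 36.8, Ndufa8 at 310 ± 28.6 and Ndufa6 at 304 ± 40.3 FPKM down to Ndufab1, the mitochondrial acyl carrier protein, at 54.4 ± 6.48, Ndufa11 at 54.2 ± 6.58 and Ndufb7 at 44.4 ± 4.19 FPKM. Ndufab1, Ndufa11 and Ndufb7 were divided by 3479, 2661 and 4435 bases, where their principal transcripts have 1416, 545 and 623. On the principal length they stood at 134, 264 and 316, so their low place rests on the length used.

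The low end of complex I was held by Ndufs5 and Ndufb2. Ndufs5, an accessory subunit of the intermembrane side, had 9.43, 14.8, 16.4, 16.7 and 10.4 FPKM in libraries 1 to 5, a mean of 13.6 ± 3.40, with 147 to 270 reads behind each value. The processed pseudogene BC002163 on chromosome 16, which is 99.4% identical to 53.3% of the Ndufs5 transcript, was listed at 421 ± 41.7 FPKM in the same libraries. Reads of Ndufs5 and of this copy could not be told apart here, and the low level of Ndufs5 is uncertain for that reason. Ndufb2, a membrane-arm accessory subunit, was listed at 0.54, 0.55, 0.63, 0.57 and 0.41 FPKM, or 45 to 59 reads. It was divided by a length of 4371 bases, whereas its principal transcript has 455, and 50.8% of that transcript is shared with other genes.

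Complex II had a median of 246 ± 26.2 FPKM over its 4 transcripts. Sdhb, the iron-sulfur subunit, had 409, 496, 347, 443 and 378 FPKM in libraries 1 to 5, a mean of 415 ± 57.8. Sdha, the flavoprotein that oxidises succinate, was at 320 ± 37.9 FPKM. The membrane anchors were lower, Sdhd at 173 ± 15.6 and Sdhc at 97.9 ± 10.4 FPKM. Sdhb was divided by a shorter length (616 bases) than its principal transcript (1142 bases); on the principal length it stood at 224, below Sdha at 320. The order of these 2 catalytic subunits therefore depends on the length used.

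Complex III transcripts had a median of 333 ± 60.5 FPKM over 9 genes. Uqcr11, a small accessory subunit, had 484, 555, 405, 634 and 409 FPKM in libraries 1 to 5 (mean 497 ± 98.1). The larger core protein Uqcrc1 was at 471 ± 69.0 FPKM, the small subunit Uqcr10 at 448 ± 83.0 and cytochrome c1 (Cyc1), which hands electrons to cytochrome c, at 448 ± 61.4. These 4 differed by less than their spread between libraries. Uqcrfs1, the Rieske iron-sulfur protein, had 366, 395, 235, 353 and 310 FPKM, with library 3 well below the rest. The small subunits Uqcrb at 288 ± 34.3, Uqcrh at 264 ± 40.4 and Uqcrq at 263 ± 50.7 FPKM lay between. Uqcrc2, the partner of Uqcrc1, was lowest at 223 ± 27.8 FPKM. The carrier Cycs, which shuttles electrons from complex III to complex IV, was at 140 ± 13.1 FPKM, below every complex III transcript in its mean. Of its transcript 35.0% is shared with other genes, so its level and this ranking are uncertain. The 39 of these genes in the table summed to 211 ± 22.2 FPKM. However, the 5 of them at 10 FPKM or more each share only 1.70% to 4.29% of the Cycs transcript. The gene that shares the largest part, 30.3%, was at 3.35 ± 0.62 FPKM.

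Complex IV had a median of 313 ± 39.3 FPKM over its 18 transcripts at 1 FPKM or more and of 219 ± 20.8 FPKM over all 20, which run from 1742 ± 285 FPKM down to 0. As deposited, its 4 highest transcripts were the muscle isoforms Cox6a2, Cox8b and Cox7a1 and the zinc-binding subunit Cox5b. On the principal length Cox6a2 and Cox8b stayed highest, but Ndufa4 (770) and Cox7c (712) stood above Cox7a1 (708) and Cox5b (608). Cox5b was divided by 566 bases, where its principal transcript has 865. Cox5b was at 929 ± 120 FPKM, although 50.9% of its transcript is shared with near-identical sequence of other genes. Ndufa4 was at 707 ± 94.8, Cox4i1 at 657 ± 91.7 and Cox6b1 at 647 ± 93.3 FPKM. The ranges of these 3 over the libraries overlapped. Cox7c followed at 543 ± 109 FPKM with 58.3% of its transcript shared, Cox7b at 333 ± 54.9 FPKM and Cox5a, which has no second isoform among these genes, at 293 ± 27.2 FPKM.

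Cox6a2 (chr7:128205435-128206387, minus strand, GRCm38), the heart and muscle form of subunit 6a, had 1780, 1899, 1321, 2074 and 1636 FPKM in libraries 1 to 5. Its ubiquitous partner Cox6a1 (chr5:115345642-115348981, minus strand) had 82.4, 89.1, 110, 76.6 and 61.1 FPKM. Cox6a2 was thus the higher in 5 of 5 libraries, by a log2 ratio of 4.37 ± 0.47 on the log2(FPKM + 1) scale, and made up 95.2% ± 1.70 of their summed FPKM. Library 3 had both the lowest Cox6a2 and the highest Cox6a1, which gave the lowest share, 92.3%.

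Cox8b (chr7:140898945-140900446, minus strand), the muscle form of subunit 8, had 1213, 1328, 746, 1510 and 960 FPKM. Cox8a (chr19:7215153-7217616, minus strand), its ubiquitous partner, had 63.4, 81.2, 97.7, 63.0 and 53.4 FPKM. The log2 ratio was 3.98 ± 0.62, and the share of Cox8b was 93.7% ± 3.01. Again library 3 held the lowest value of the muscle form and the highest of the ubiquitous form, with a share of 88.4%.

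Cox7a1 (chr7:30184144-30186078, plus strand), the muscle form of subunit 7a, had 727, 932, 589, 824 and 751 FPKM, against 148, 172, 138, 144 and 146 FPKM for Cox7a2 (chr9:79755361-79759878, minus strand). The log2 ratio of 2.33 ± 0.16 was the smallest of the 3 muscle pairs, and Cox7a1 made up 83.5% ± 1.57 of the pair. Its share was lowest in library 3 as well, at 81.0%. Unlike Cox6a1 and Cox8a, which were highest in library 3, Cox7a2 was itself lowest there, so both members of this pair had their lowest value in the same library.

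In the other pairs, Cox4i1, the general form of subunit 4, had 622, 725, 545, 774 and 619 FPKM, against 2.92, 4.27, 1.96, 3.15 and 4.35 FPKM for Cox4i2, known from lung and low oxygen (log2 ratio 7.27 ± 0.29). Cox6b1 stood at 647 ± 93.3 FPKM and the testis form Cox6b2 at 1.63 ± 0.547 FPKM, with 12 to 30 reads per library behind Cox6b2 (log2 ratio 7.96 ± 0.24, a scale that understates the ratio for low genes). Ndufa4 was at 707 ± 94.8 FPKM and its paralog Ndufa4l2, known to be induced by low oxygen, at 13.7 ± 2.77 FPKM (log2 ratio 5.60 ± 0.11). The least one-sided of these 4 was Cox7a2, which exceeded Cox7a2l, a relative known for joining complexes III and IV into supercomplexes, by 1.43 ± 0.23, with 55.2 ± 9.05 FPKM for Cox7a2l.

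Of the testis forms, Cox7b2 had 1 read, in library 4, against 333 ± 54.9 FPKM for Cox7b, and Cox8c had 0 reads in all 5 libraries. A count of 0 allows up to 3 reads, or 0.118 to 0.180 CPM (counts per 1000000 reads) in these libraries, for counting error only. The 6 testis marker genes summed to 0 to 0.172 FPKM per library. Each of the 10 pairs with a level in both members kept its direction in 5 of 5 libraries, and the exact two-sided sign-flip test gave p = 0.0625 for each, the smallest that 32 sign patterns can give. Adjustment over the 10 leaves that value as it is, so no pair could pass 0.05 in this design.

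**Figure D2:**
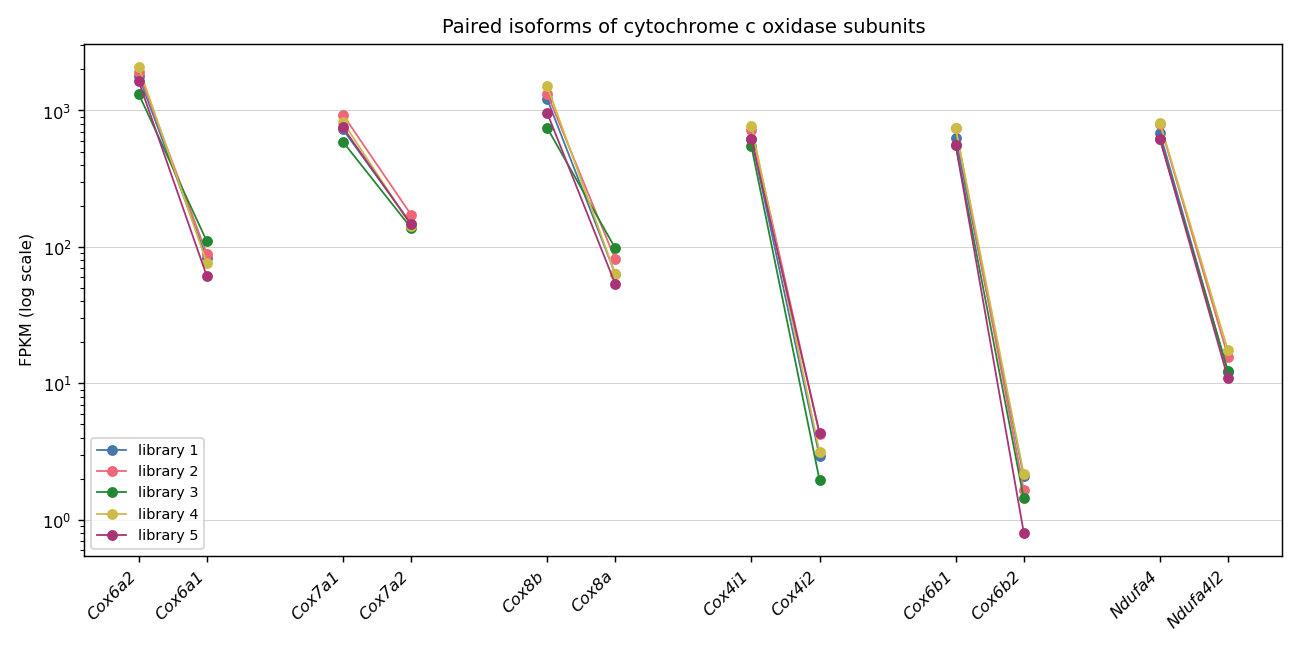
FPKM (log scale) of 6 complex IV isoform pairs, 1 line per library, with the muscle or general form on the left and its partner on the right. The lines of Cox6a2 with Cox6a1 and of Cox8b with Cox8a cross in library 3, which is lowest at the left and highest at the right.

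Complex V had a median of 331 ± 40.8 FPKM over 17 transcripts. Atp5b, the catalytic beta subunit, was the highest of all 87 members, with 1962, 2145, 1506, 1890 and 1834 FPKM in libraries 1 to 5 (mean 1867 ± 234). Atp5a1, the alpha subunit that forms the catalytic ring with it, was at 916 ± 91.7 FPKM. Both occur in equal number in the enzyme, but the transcript of Atp5b was the higher in 5 of 5 libraries. In the rotor stalk, Atp5c1 (gamma) was at 370 ± 29.8 and Atp5e (epsilon) at 255 ± 50.2 FPKM, and Atp5d (delta) ranged from 267 to 349 FPKM. In the peripheral stalk, Atp5j (coupling factor 6) was at 495 ± 75.5, Atp5h (d) at 384 ± 65.9, Atp5o (OSCP) at 308 ± 37.1 and Atp5f1 (b) at 220.1 ± 14.8 FPKM. The small membrane subunits Atp5mpl, Atp5l, Atp5k and Atp5j2 lay between 304 and 461 FPKM in their means. Of the stalk and membrane subunits, Atp5l, Atp5h, Atp5c1, Atp5k, Atp5o and Atp5f1 each share 55.7% to 92.0% of their transcript with other genes. The lowest was Atp5s at 5.35 ± 0.558 FPKM, a gene with the family's name that is not counted among the structural subunits.

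The ring of subunit c is encoded by Atp5g1, Atp5g2 and Atp5g3, which give the same mature protein. Together they summed to 1076 ± 117 FPKM, of which Atp5g3 made up 60.0% ± 2.61, Atp5g2 25.9% ± 1.93 and Atp5g1 14.1% ± 0.865. As deposited, Atp5g1 was lower than Atp5g2 in 5 of 5 libraries, by -0.87 ± 0.08 in log2, and Atp5g3 was higher than Atp5g1 by 2.08 ± 0.15. Both directions turn round with the principal transcript length, to 1.13 and -0.41, because Atp5g1 was divided by 4715 bases where the principal transcript has 691. Atp5g3 stayed above Atp5g2, by 1.21 ± 0.17 as deposited and 0.72 ± 0.17 with that length. The Atp5g2 transcript is also shared in full with near-identical copies, and 59.5% of that of Atp5g1 is, so these shares describe the deposited values.

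The lengths matter beyond subunit c. Of 86 members with a recovered length, 51 were within 10% of the principal transcript, and 10 were divided by more than 2 times its length. Ndufb7 stood at 316 FPKM with the principal length, against 44.4 FPKM as deposited, Cox6c at 551 against 110, Uqcrq at 989 against 263, and Atp5e at 1027 against 255. Read through the principal lengths, the complex medians were 253 ± 31.2 for complex I, 202 ± 22 for II, 387 ± 59.1 for III, 434 ± 61.6 for IV and 502 ± 54.2 for V. In that version the order was II, I, III, IV, V in each of the 5 libraries. As deposited, complex I was below complex II in 5 of 5 libraries (log2 -0.52 ± 0.19), and with the principal length it was above it in 5 of 5 (0.32 ± 0.14). The place of complex IV also depended on the summary of its members. It lay above complex II and below V in 5 of 5 libraries under both lengths, but below complex II in 5 of 5 with the mean of log2 values or with members under 1 FPKM included, and above complex V in 5 of 5 without the tissue, testis and hypoxia isoforms. Under both lengths and under each of these 3 summaries of the deposited values, complex I lay below III, IV and V, and complex II below III and V, in 5 of 5 libraries.

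**Figure D3:**
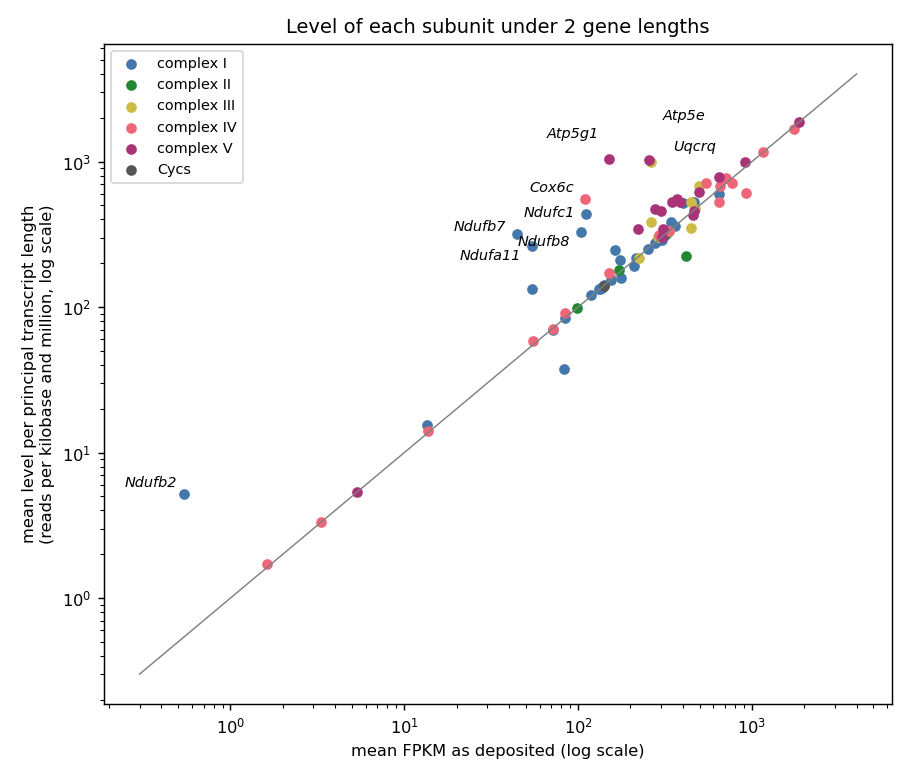
Mean level of each member as deposited (x axis, FPKM, log scale) and per principal transcript length (y axis, log scale), coloured by complex, with the line of equality. Members above the line were divided by a longer length than their principal transcript; Atp5g1 moves to 1034, against 152 FPKM as deposited.

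The members tended to be high and low in the same libraries. As deposited, 40 of 84 were highest in library 2 (23.2% of all tested genes were) and 39 in library 4 (10.5% of all), and with median-of-ratios scaling, which sets the typical gene equal across libraries, the counts were 9 (13.6% of all) and 71 (27.5% of all). The split between libraries 2 and 4 thus depends on the scaling. The remaining 5 were highest in library 1 (2 members, 21.2% of all), library 3 (2 members, 37.4% of all) or library 5 (1 member, 7.68% of all) as deposited. Lowest values were more stable: 56 of 84 members were lowest in library 3 (17.1% of all genes) and 22 in library 5 (24.9% of all), and under the other scaling 69 were lowest in library 3 (28.6% of all) and 3 in library 5 (13.8% of all). All 56 were among those 69. The other 6 were lowest in library 1 (10.2% of all) as deposited, and 12 were (18.6% of all) under the other scaling. No member was lowest in library 2 (9.80% of all as deposited, 20.4% with the other scaling) or in library 4 (38.0% and 18.6% of all). Because the members share their libraries, these counts describe 5 samples and carry no p-value.

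In size, the mean member deviated from its own mean by -0.02, 0.18, -0.18, 0.15 and -0.13 in log2(FPKM + 1) in libraries 1 to 5, against 0.01, 0.06, 0.10, -0.10 and -0.08 for all tested genes. Median-of-ratios scaling moved the median of all genes in library 4 to 0.02, against -0.10 as deposited. Relative to all genes, the members stood at -0.03, 0.12, -0.29, 0.25 and -0.05 as deposited and at -0.04, 0.10, -0.30, 0.28 and -0.04 under that scaling. Libraries 2 and 4 were thus above and library 3 below the typical gene under both.

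The complexes followed the same course with 2 differences. Complex III lay furthest below all genes in library 3, at -0.41, with the other complexes at -0.26 to -0.28. All 9 of its transcripts were lowest there under both scalings, as were all 4 of complex II. Among all tested genes 17.1% were lowest in library 3 as deposited and 28.6% with median-of-ratios scaling. Complex II was nearest to all genes in library 4, at 0.06, against 0.24 to 0.28 for the other 4 complexes. None of its 4 transcripts was highest in library 4 as deposited, where 21 of 35 complex I transcripts were (2 of 4 and 33 of 35 with median-of-ratios scaling). Among all tested genes 10.5% were highest there as deposited and 27.5% with that scaling, so the complex II count as deposited is near the share of all genes. Complex II principal transcripts have 1142 to 3171 bases, and transcript length went with the ratios involving library 4, as described below. The part of length in this difference was not tested. With 4 to 35 genes per complex and 1 group of samples, these differences between complexes were not tested.

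**Figure D4:**
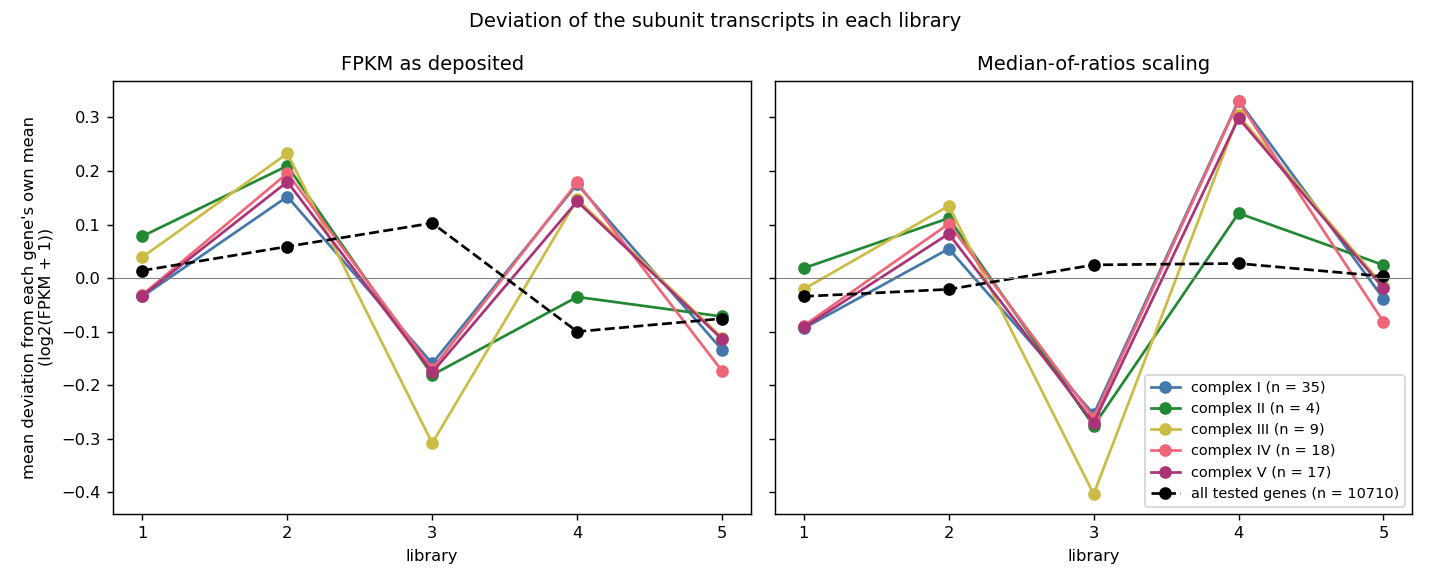
Mean deviation of the tested members of each complex from each gene's own mean (y axis, log2(FPKM + 1)) in libraries 1 to 5, as deposited on the left and with median-of-ratios scaling on the right, with all tested genes as a dashed line. Every complex dips in library 3; in library 4, complex II stays lower than the other complexes.

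Markers of other cells moved with these libraries. In library 3, macrophage markers summed to 368 FPKM against 94.9 to 126 in the others (10 of 10 highest there), embryonic or regenerating fibre markers to 132 against 15.4 to 24.9 (8 of 8), white adipocyte markers to 272 against 38.2 to 136 (5 of 5) and erythroid markers to 1028 against 328 to 500.4 (4 of 4 tested). Slow-fibre markers were highest in library 2 for 9 of 9 genes, with a sum of 4537 FPKM against 1394 to 2026 in the others. Skeletal muscle fibre markers, all 10 of them detected, summed to 72772 to 94383 FPKM, with the lowest sum in library 2 and the highest in library 4. As deposited, 7 of the 10 were lowest in library 2, but 2, the myosin genes Myh1 and Myh2, were highest there. Myh1 had 1954 FPKM in library 2 against 628 to 1471 in the others, and Myh2 had 1406 against 468 to 765. Pericyte and smooth muscle markers summed to 1445 to 3068 FPKM (4 of 8 highest in library 3), endothelial markers to 70.2 to 92.7 FPKM (4 of 6 highest in library 2) and brown adipocyte markers to 3.11 to 6.91 FPKM. Of the pericyte and smooth muscle sums, Des alone held 1297 to 2870 FPKM, and 3 of the 8 genes were highest in library 1. Among all tested genes 21.2% were highest in library 1, 23.2% in library 2 and 37.4% in library 3 as deposited. The counts for the macrophage, embryonic, white adipocyte, erythroid and slow-fibre lists were the same with median-of-ratios scaling. Of the 6 testis genes 4 were at 0 throughout, and Ucp1, which defines brown adipocytes, averaged 0.056 FPKM. The part of these cells in the members' values was not tested, and in bulk tissue fewer cells of a type and less RNA per cell cannot be told apart.

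Against this background Cox6a1 and Cox8a, the ubiquitous partners of muscle isoforms, were the only 2 of the 84 members that were highest in library 3, under both scalings. Among all tested genes 37.4% were highest in library 3 as deposited and 27.0% with median-of-ratios scaling. Cox6a1 had 79.2, 83.4, 103, 85.6 and 65.5 FPKM in libraries 1 to 5 with that scaling, and Cox8a had 60.9, 76.0, 91.6, 70.4 and 57.2. Cox4i2 was highest in library 5 under both scalings and lowest in library 3.

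Transcript length also went with the difference between library 4 and the others. Across the 84 members, the log2 ratio of library 4 over library 2 had a Spearman rho of -0.50 with principal transcript length, and across 10211 tested genes with such a length rho was -0.34. For library 4 over library 1 rho was -0.59 for the members and -0.45 for all, and for library 5 over library 4 it was 0.61 and 0.48. For library 4 over library 3 it was -0.45 and -0.19. In the pairs without library 4, rho for the members was weaker, from -0.11 (library 2 over 1) to 0.20 (library 5 over 2). These are correlations across genes of the same 2 libraries, which are not independent replicates. Of the 55 members under 1000 bases, 34 were highest in library 4 and 18 in library 2 as deposited, and of the 29 longer ones 5 were highest in library 4 and 22 in library 2. With median-of-ratios scaling, library 4 was the highest for 49 of the 55 and for 22 of the 29. These counts by length were not taken for all tested genes. As deposited, 10 of 12 members under 500 bases were higher in library 4 than in library 2, against 63.6% of all tested genes. From 500 to under 750 bases, 17 of 31 were, against 59.3%, and from 750 to under 1000 bases, 7 of 12, against 57.6%. From 1000 to under 1500 bases, 5 of 13 were, against 49.9%, and from 1500 to under 2000 bases, 1 of 10, against 39.9%. Short genes in general thus leaned to library 4 over library 2. Members highest in library 4 as deposited had a median length of 599 bases and those highest in library 2 of 1110.5 bases. All 6 members of 2000 bases or more (Ndufs1, Sdha, Sdhc, Atp5a1, Cycs and Ndufa10) were lower in library 4 than in library 2 as deposited, and 4 of the 6 with median-of-ratios scaling, where Cycs and Ndufa10 were higher. In that class 20.1% of all tested genes were higher in library 4 as deposited.

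**Figure D5:**
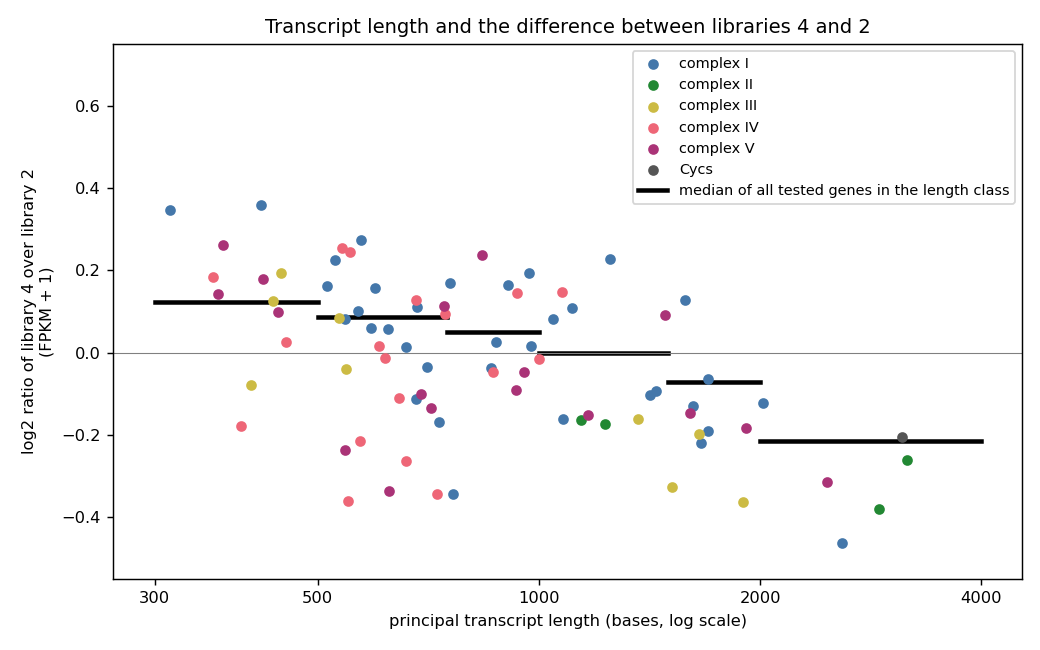
Log2 ratio of library 4 over library 2 (deposited FPKM + 1, y axis) against principal transcript length (x axis, log scale) for the 84 tested members, coloured by complex, with the median of all tested genes in each length class as black bars. Members under 500 bases lie mostly above 0 (median 0.16) and the 6 members of 2000 bases or more lie below 0 (median -0.29), 4 of them also with median-of-ratios scaling; the last bar takes all genes of 2000 bases or more.

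No member passed the test for varying between libraries beyond genes of its level. In a limma fit across 10710 genes, the variance of a gene over the libraries was set against the trend of variance with abundance, and 0 of 84 members had an adjusted p under 0.05, as had 0 of all genes (0%). At an unadjusted p under 0.05 there were 0 members, against 616 of all genes (5.75%), and a voom fit of the recovered reads likewise called 0 members. The median ratio of variance to trend was 0.888 for the members and 0.967 for all genes. With 5 libraries the limma test had only 4 and 3.93 degrees of freedom, and its p-values were adjusted over 10710 genes. Mymk, an embryonic or regenerating fibre marker at 0 to 22.1 FPKM, did not pass either (unadjusted p = 0.000624 by the limma test). The 0 calls therefore cannot show that the members vary no more than genes of their level. Against counting error alone, 83 of 84 members (98.8%) varied more than reads of a common share would, by a chi-square test on recovered reads with adjusted p under 0.05. The same held for 87.9% of all tested genes. Atp5s, with 121 to 211 reads, was the exception, at an adjusted p of 0.116 by that chi-square test.

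The members with the largest ratio of variance to trend were Ndufs5 (3.76), Cox8a (3.30), Cox8b (3.23), Cox4i2 (3.18), Cox6a1 (2.66) and Ndufv3 (2.36). Both members of the Cox8 pair are among them, in opposite directions in library 3. Ndufv3, an accessory subunit of the flavoprotein part of complex I, had 72.9, 81.0, 54.8, 88.6 and 59.9 FPKM. The steadiest were Ndufa12 (0.218), Atp5f1 (0.233), Atp5c1 (0.303), Ndufc2 (0.323), Ndufv2 (0.382) and Atp5a1 (0.393). Ndufa12, an accessory subunit of the matrix arm, ranged only from 201 to 234 FPKM, Atp5f1, the b subunit of the peripheral stalk, from 202 to 243, Atp5c1, the gamma subunit of the rotor, from 343 to 418, and the membrane-arm subunit Ndufc2 from 130 to 153 FPKM.

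Near-identical copies limit some of these values. At 95% identity over 50 bases or more, 16 of the 87 principal transcripts share at least 50% of their length with transcripts of other genes, and 46 share none. Counting every gene of the table that shares such a stretch, 7 members had one at 10 FPKM or more. Beside Ndufs5, these included Ndufa12 at 216 ± 13.9 FPKM with the processed pseudogene Gm15920 at 115 ± 22.4, Atp5g1 at 152 ± 15.2 with Gm10039 at 103 ± 16.4, and Cox7a2l at 55.2 ± 9.05 with Gm6969 at 81.2 ± 15.5 FPKM. Cox7c at 543 ± 109 FPKM had the pseudogene Gm12338 at 16.3 ± 3.23, and Cox5b at 929 ± 120 FPKM shares 5.78% of its transcript with Igfbp4 at 36.4 ± 16.4 FPKM. For Cycs there were 5 such genes, each sharing 1.70% to 4.29% of its transcript. Ndufs5, Cycs and Cox7a2l were the 3 members below the summed level of the genes that share their sequence. Among the 69 tested members that share less than 50%, 34 were highest in library 2, 30 in library 4, and 48 were lowest in library 3 as deposited, and with median-of-ratios scaling the counts were 8, 57 and 58.

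Other genes of the pathway follow. As deposited, the 13 subunits encoded in the mitochondrial genome were highest in library 3 (8 of 13, 37.4% of all tested genes) or library 2 (5 of 13, 23.2% of all). With median-of-ratios scaling 6 were highest in library 3 (27.0% of all), 4 in library 5 (18.8%), 2 in library 4 (27.5%) and 1 in library 2 (13.6%). Their 2 highest were mt-Co1, a catalytic subunit of complex IV, at 20437 ± 2968 FPKM, and mt-Nd1, a membrane-arm subunit of complex I, at 13071 ± 1256 FPKM. Summed FPKM of mitochondrial over nuclear subunits was 4.84 ± 0.785 for complex I, 4.10 ± 0.677 for complex III and 2.53 ± 0.442 for complex IV, each lowest in library 4. Only 7 of the 13 stood at 1000 FPKM or more and 6 were under 100, mt-Co2 (74.8 ± 16.9) and mt-Co3 (51.2 ± 6.01) among them, so the complex IV ratio rests almost wholly on mt-Co1. For complex V the ratio was 0.00683 ± 0.00221, and it rests on mt-Atp6 (43.7 ± 6.96) and mt-Atp8 (8.24 ± 5.23), both among those 6. Near-identical copies of the mitochondrial genes were not searched for, so these low levels and the ratio are uncertain.

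Assembly factors, which build the complexes without being part of them, were low beside the subunits. The 41 tested of 46 had a median of 15.5 FPKM, led by Uqcc2, for complex III, at 174 ± 16.2 FPKM and Cox14, for complex IV, at 142 ± 20.4 FPKM. As deposited 15 were highest in library 1 (21.2% of all tested genes), 10 in library 2 (23.2%), 2 in library 3 (37.4%), 10 in library 4 (10.5%) and 4 in library 5 (7.68%). With median-of-ratios scaling 24 were highest in library 4 (27.5% of all) and 26 lowest in library 3 (28.6% of all). The 12 regulators of mitochondrial gene expression had a median of 4.38 FPKM, led by Esrra, an oestrogen-related receptor, at 68.8 ± 7.68 FPKM and Yy1 at 18.4 ± 1.44 FPKM. As deposited, 8 of the 12 were lowest in library 4 (38.0% of all tested genes). With the other scaling 4 of the 12 regulators were lowest in library 4 (18.6% of all) and 6 in library 3 (28.6% of all). The 12 carriers, inhibitor and cristae partners were led by Slc25a4, the muscle ADP/ATP carrier, at 1962 ± 237 FPKM and the outer-membrane pore Vdac1 at 724 ± 78.6 FPKM. Of these, 6 were highest in library 2 (23.2% of all tested genes), 4 in library 4 (10.5%), and 7 were lowest in library 3 (17.1%) as deposited. With the other scaling the counts were 1 (13.6% of all), 10 (27.5%) and 9 (28.6%). None of these lists held a gene past the adjusted threshold in the limma fit, and 2 of 13, 0 of 41, 0 of 12 and 1 of 12 were under 0.05 unadjusted, in the order given.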

How the data were processed

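Poly-A selected RNA from about 20 mg of muscle was sequenced by a commercial provider, per the labels' protocols. Tools listed in the submitters' processing notes are STAR 2.5, TopHat and HTSeq 0.6.1, beside edgeR and DESeq2 and the build mm10, without roles. For annotation release, strand setting and multiply matching reads, nothing is given in the sources used here. A single deposited table has 1 column per sample and gives FPKM made by the authors; its header names no unit, and FPKM was read from the values, which are whole multiples of 1 read per gene length and library total. Reads and lengths were recovered from those steps for 20840 of 20840 genes above 0 (100%; within 0.001 of a read), 4544 of them at the annotated exon length. For the rest they rest on the length found. FPKM divides by the library total, so abundant genes lower all others.

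The test of spread took genes averaging at least 1 FPKM, on log2(FPKM + 1), in limma 3.58.1 in R 4.3.3, after a check on simulated data. An intercept was fitted and each variance was set against the abundance trend by an F test (one-sided, Benjamini-Hochberg). The design had allowed for counts; since the table holds FPKM, the FPKM test was used. Reads were also tested against a common share by chi-square. Isoform ratios used an exact sign-flip test. Levels per principal length used GENCODE M21 (GRCm38, the assembly of mm10), which gave symbols for 34490 identifiers, and copies were found with blastn 2.17.0. Promoters are RefSeq's. Of symbols under the rule, 1 protein-coding identifier had no row and 11 rows of other gene types were left out. Python 3.11.15, numpy 2.4.6, scipy 1.17.1 and pandas 2.3.3 were used.

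The members, gene lists and tests were chosen with earlier results of these data known. Named genes were, per complex, the 4 highest and the lowest, all isoform pairs, Cycs and Cyc1, the 6 largest and 6 smallest ratios of variance to trend, members under 1 FPKM, and the 2 highest of each other pathway list. Other members, given by role, and mt-Co2, mt-Co3, mt-Atp6, mt-Atp8, Des, Myh1, Myh2, Mymk, Ucp1, Igfbp4 and the pseudogenes were chosen after their values were seen, as was the use of principal lengths. Alternatives covered pseudocount, filters, scaling, total, voom, lengths and each library left out. The values of 1 member are not reported here singly, though it is in all counts and medians.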

Additional observations from a re-analysis of the deposited data

Results flagged for a closer look

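Of 99 results examined for a library far from the other 4, 1 stood out. Cox7a2, the ubiquitous form of subunit 7a, was at 172 FPKM in library 2, while the other 4 libraries lay between 138 and 148 FPKM, so that the gap took up 0.718 of the range. About 1 in 20 groups of 5 is picked by chance in this way. With median-of-ratios scaling Cox7a2 was at 161 in library 2 and 160.4 in library 4. Slow-fibre markers were highest in library 2 as well (4537 FPKM summed, against 1394 to 2026 in the others), and their part in this value was not tested.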

How the results depend on the processing

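The direction of every isoform ratio was the same with a pseudocount of 0.1 and with each library left out. With the principal transcript length, chosen after seeing the data, Atp5g1 over Atp5g2 reversed to 1.13 and Atp5g3 over Atp5g1 to -0.41, and the other 8 ratios kept their direction; that length also moved the medians of complex I to 253, II to 202, IV to 434 and V to 502, and the levels of 32 of 86 members by more than 1 SD. Taking the mean of log2 values moved complex II to 218 and complex IV to 172 FPKM, and leaving out tissue, testis and hypoxia isoforms moved complex IV to 665 and complex V to 385 FPKM. Including members under 1 FPKM, a choice made after seeing the data, moved complex IV to 219 FPKM. Complex IV thus fell below complex II with the log2 mean and with all members, and stood above V without the isoforms. Median-of-ratios scaling gave 9 members highest in library 2, 71 highest in library 4 and 3 lowest in library 5. Leaving out each library gave 41 to 71 members highest in library 2 (71 without library 4), 39 to 66 highest in library 4 (66 without library 2) and 22 to 65 lowest in library 5 (65 without library 3), which follows from removing a library that held the extreme. Genes above the trend numbered 0 to 4 of all genes, 4 without library 3, and 0 members in every case. With a minimum of 10 FPKM, 3640 genes exceeded counting error, because fewer genes were tested. Members with few reads (Ndufs5, Ndufb2, Cox4i2, Cox6b2) are limited by depth. No paired comparison of conditions was possible because the 5 numbers belong to 1 group. The isoform ratios were paired within each library.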
